A study of Mus musculus with 19 samples.

Results

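The collagen gene family was followed through a mouse model of advanced liver fibrosis. Its members were the genes of the count table whose symbol has the form Col, a number, a and a number, which gave 44 of 31053 listed genes. Collagens are triple-helical proteins of the extracellular matrix. Fibrillar collagens such as types I and III form the cable-like fibres of scar tissue, type IV collagen forms the sheet of basement membranes, and type VI collagen forms beaded filaments between them. In fibrotic liver the fibrillar chains are made mainly by hepatic stellate cells and portal fibroblasts that have become myofibroblasts, and a basement membrane-like matrix appears along the sinusoids.

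Liver RNA came from male C57BL/6 mice (labelled C57BL6J). They were 6 to 8 weeks old when entered into the study, and their age at sacrifice is not given in the sources used here. The control group was labelled only with PBS, the vehicle (n = 5). The other mice received thioacetamide (TAA), a hepatotoxin, in rising doses for 12 weeks, and after 10 weeks were injected with adeno-associated vectors of serotype 8 (AAV8) that carried either eGFP (TAA_GFP, n = 7) or miR-34b together with miR-34c (TAA_miR, n = 7), each under TBG, a hepatocyte-specific promoter, and were sacrificed 4 weeks later. Whether vehicle-treated mice received a vector is not given in the sources used here, so TAA and AAV8 cannot be told apart in a comparison with PBS. The libraries were made from the 3′ end of transcripts, and levels are given as normalized counts per 1000000 counts of a library (CPM).

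The libraries held 2214073 to 5208405 counts. Within groups, 6 pairs of libraries were closer to each other than the rest, with a between-library coefficient of variation of 0.0784 to 0.153 against 0.207 for the next pair. These pairs were TAA_miR replicates 3 and 4, 5 and 7, and 1 and 2, TAA_GFP replicates 1 and 2, and PBS replicates 1 and 4, and 3 and 5. Results are therefore also given with each of these pairs summed into 1 sample, which left 3 PBS, 6 TAA_GFP and 4 TAA_miR samples. Hepatocyte marker genes, the check of the labelled tissue, summed to between 56070 and 85580 CPM in every library.

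Of the 44 collagen genes, 14 passed the filter on low counts in at least 1 comparison: 7 of 11 fibrillar genes, 2 of 6 type IV genes, 2 of 6 type VI genes, 1 of 9 FACIT genes (chains that sit on the surface of fibrils), 1 of 2 multiplexins and 1 of 4 transmembrane collagens. The other 30 never passed. Of these, 6 had no count in any library, namely Col2a1, Col9a1, Col10a1, Col11a1, Col22a1 and Col6a4, several of which are known as cartilage collagens. A further 12 had at most 3 counts in each library (Col4a3, Col7a1, Col8a2, Col9a2, Col9a3, Col17a1, Col19a1, Col20a1, Col23a1, Col24a1, Col26a1 and Col28a1). The remaining 12 reached more than 3 counts in at least 1 library (Col4a4, Col4a5, Col4a6, Col6a1, Col6a5, Col6a6, Col8a1, Col11a2, Col12a1, Col15a1, Col16a1 and Col25a1).

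Sequence is shown first for some of the genes that the comparisons name. Whether it bears on their differences was not tested. Promoter windows of 250 bases before the RefSeq start (GRCm38.p6) are given for Col3a1 and Col6a3, which were lower with AAV-miR-34b/c, and for Col1a2, which was not called in that comparison. Col1a1, also lower, and miR-34c are named without sequence. Capitals mark 4 motifs searched on both strands, namely the CCAAT box, the TATA box spelled TATAAA, the GC box spelled GGGCGG, and a SMAD element spelled CAGACA that is bound by the effectors of TGF-β.

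Col1a2, chr6:4505368-4505617, plus strand: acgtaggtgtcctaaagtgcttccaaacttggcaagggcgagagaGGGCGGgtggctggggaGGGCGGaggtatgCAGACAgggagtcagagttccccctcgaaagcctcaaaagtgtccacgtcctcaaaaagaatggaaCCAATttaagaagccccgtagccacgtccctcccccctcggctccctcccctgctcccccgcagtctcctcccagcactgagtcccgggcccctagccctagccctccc
Col3a1, chr1:45311288-45311537, plus strand: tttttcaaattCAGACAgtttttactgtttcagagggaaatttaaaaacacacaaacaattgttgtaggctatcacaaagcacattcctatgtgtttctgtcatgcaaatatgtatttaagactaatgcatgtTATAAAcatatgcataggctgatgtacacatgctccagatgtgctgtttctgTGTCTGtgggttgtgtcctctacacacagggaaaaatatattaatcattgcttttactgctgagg
Col6a3, chr1:90843972-90844221, minus strand: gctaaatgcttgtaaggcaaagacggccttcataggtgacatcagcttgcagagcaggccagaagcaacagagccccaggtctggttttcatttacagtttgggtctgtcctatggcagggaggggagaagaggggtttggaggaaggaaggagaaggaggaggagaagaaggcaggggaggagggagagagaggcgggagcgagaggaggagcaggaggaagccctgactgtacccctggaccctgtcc

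Col1a2 held 2 GC boxes, 1 SMAD element and 1 CCAAT box, Col3a1 held 1 TATAAA and 2 SMAD elements, and Col6a3 held none of these letters. Over the 38 collagen windows listed, 34.2% held CCAAT against 33.8% of all 32851 promoter windows, 13.2% held TATAAA against 12.4%, 57.9% held GGGCGG against 32.7%, and 23.7% held CAGACA against 17.1%. Matches to letters are a description of the windows and do not show binding.

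The miR-34b vector supplied a microRNA whose seed pairs with CACTGCC in messenger RNA. The mature miR-34b-5p (chr9:51103610-51103632, minus strand, RefSeq GRCm38.p6) is shown with the matches in the 3′ untranslated region of Col6a1 and Col6a2, chains of the common type VI collagen, with the seed (bases 2 to 8) or the match in capitals.

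mmu-miR-34b-5p: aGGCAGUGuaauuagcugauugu
Col6a1: tcttcctcctCACTGCCcctaacctat
Col6a2: taaaggcatgCACTGCCatgccccact

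In the longest 3′ untranslated region of each gene (GENCODE M21), 9 of 44 collagen genes (20.5%) held at least 1 seed match, against 2990 of 20971 genes (14.3%). None of the 11 fibrillar genes held one, and among the 14 genes that passed the filter Col6a2 was the only one that did. The other matches lay in Col6a1 and in Col4a3, Col4a4, Col4a6, Col6a6, Col9a3, Col12a1 and Col23a1.

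The first comparison asked which collagen genes differed between fibrotic livers of AAV-GFP-injected mice and vehicle-treated livers. Collagen genes of the fibril, basement membrane and beaded filament classes were higher in TAA_GFP: 7 of the 14 genes tested were called higher and none lower by edgeR's quasi-likelihood test (adjusted p under 0.05), where 12.7% of all 9522 genes were called, 7.54% higher and 5.19% lower. All 14 had a log2 fold change above 0, with a median of 0.84, beside a median of -0.01 and 49.3% above 0 over all genes tested. A gene passes the filter more easily when 1 group is high, so these counts describe the genes that passed and not the family. In whole liver, a change in the number of cells of a type and a change in RNA per cell cannot be told apart.

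Col1a1, the α1 chain of type I collagen (chr11:94936224-94953042, mm10), changed most. It stood at 2.82, 4.94, 5.15, 5.34 and 6.11 CPM in the PBS libraries, from 7 to 25 counts each. In TAA_GFP it ranged from 13.99 through a median of 23.9 to 55.7 CPM. The groups did not overlap, which held for 1 of the 14 collagen genes tested and for 4.79% of all genes tested (2.65% with TAA_GFP higher). Col1a1 was 5.36-fold higher (log2 fold change 2.42 ± 0.36 SE, edgeR adjusted p = 0.000298), and it was called in each of the 12 fits that left out 1 library and with the close pairs summed.

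Col1a2, the α2 chain of type I collagen, stood at 12.9, 14.9, 24.0, 24.4 and 41.0 CPM in PBS and ranged from 24.7 through a median of 50.4 to 77.5 CPM in TAA_GFP. Of the TAA_GFP libraries, 4 lay above every PBS library. The log2 fold change was 1.07 ± 0.30 (edgeR adjusted p = 0.0248). The call held in 7 of 12 fits without 1 library, and was lost without PBS replicate 1, 3 or 5 or TAA_GFP replicate 2 or 4.

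Col3a1, the chain of type III collagen, was spread widely in PBS at 13.7, 17.3, 32.6, 47.7 and 48.4 CPM, and ranged from 41.2 through a median of 56.0 to 76.4 CPM in TAA_GFP. The lowest TAA_GFP libraries lay among the highest PBS libraries. Its log2 fold change of 0.78 ± 0.27 did not pass the test (edgeR adjusted p = 0.0585), although it passed under DESeq2 (adjusted p = 0.0349), with library size as the only scaling (0.0436), with no filter (0.0370), and without PBS replicate 1 or 4 or TAA_GFP replicate 6 or 7.

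Among the chains of type V collagen, which set the diameter of fibrils, Col5a3 was called higher (log2 fold change 1.51 ± 0.44, edgeR adjusted p = 0.0286). It stood at 0.402, 3.11, 5.83, 6.11 and 11.8 CPM in PBS and from 7.36 through 14.9 to 26.5 CPM in TAA_GFP, and the call was lost without PBS replicate 1, 3 or 4 or TAA_GFP replicate 1 or 2, and with all 3 groups in 1 fit (edgeR adjusted p = 0.0812). Col5a1 (log2 fold change 0.62 ± 0.41), Col5a2 (0.07 ± 0.46) and Col27a1 (0.77 ± 0.52) were not called, although Col27a1 was without PBS replicate 2 (log2 fold change 1.69). Col5a2 lies 24614 bases from Col3a1, tail to tail on chromosome 1, and was counted at only 2 to 22 reads in these groups.

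The 2 abundant type IV genes, Col4a1 and Col4a2, were both higher in TAA_GFP. They lie head to head on chromosome 8, with start sites 21 bases apart, and encode the chains of the common basement membrane collagen. Col4a1 stood at 12.9, 14.2, 14.5, 17.4 and 19.6 CPM in PBS and from 17.3 through 28.6 to 43.8 CPM in TAA_GFP, with 6 of 7 libraries above every PBS library (log2 fold change 0.89 ± 0.22, edgeR adjusted p = 0.0129). Col4a2 stood at 5.49, 5.63, 7.11, 7.33 and 9.54 CPM in PBS and from 7.81 through 15.4 to 21.6 CPM in TAA_GFP, again with 6 of 7 libraries above every PBS library (log2 fold change 1.09 ± 0.28, edgeR adjusted p = 0.0143).

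Both type VI genes that passed the filter were also called higher. Col6a3, the longest chain of type VI collagen, stood at 4.28, 5.78, 6.84, 8.31 and 15.1 CPM in PBS and from 10.1 through 21.7 to 27.9 CPM in TAA_GFP (log2 fold change 1.32 ± 0.31, edgeR adjusted p = 0.00945). Col6a2 was low, at 1 to 12 counts in PBS and 13 to 41 counts in TAA_GFP (log2 fold change 1.78 ± 0.47, edgeR adjusted p = 0.0170). It therefore passed the filter through TAA_GFP, the group where it was high. Col6a1, the third chain of the common heterotrimer, did not pass the filter and had 3 to 5 counts in PBS against 8 to 21 in TAA_GFP.

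Collagens outside these classes were not called. Col18a1, the basement membrane multiplexin from which endostatin is cut and a gene known to be made by hepatocytes, had the most counts of the family, with a median of 283 CPM in PBS and 354 CPM in TAA_GFP (log2 fold change 0.16 ± 0.18, edgeR adjusted p = 0.571). Col14a1, a FACIT collagen of the fibril surface, had a log2 fold change of 0.23 ± 0.18, and Col13a1, a transmembrane collagen, one of 0.59 ± 0.29. Col18a1 overlaps the gene Slc19a1 on the other strand, and the strand setting of the counting is not given in the sources used here.

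With the close pairs summed, which left 3 PBS and 6 TAA_GFP samples, Col1a1 alone of the 7 stayed called (log2 fold change 2.38, edgeR adjusted p = 0.00899). The log2 fold changes of the other 6 were then 0.97 for Col1a2 (edgeR adjusted p = 0.143), 0.87 for Col4a1 (0.0948), 1.03 for Col4a2 (0.107), 1.22 for Col5a3 (0.180), 1.88 for Col6a2 (0.0761) and 1.36 for Col6a3 (0.0541), beside 1.07, 0.89, 1.09, 1.51, 1.78 and 1.32 over all libraries. At an unadjusted p under 0.05, 9 of the collagen genes passed in that fit.

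**Figure D1:**
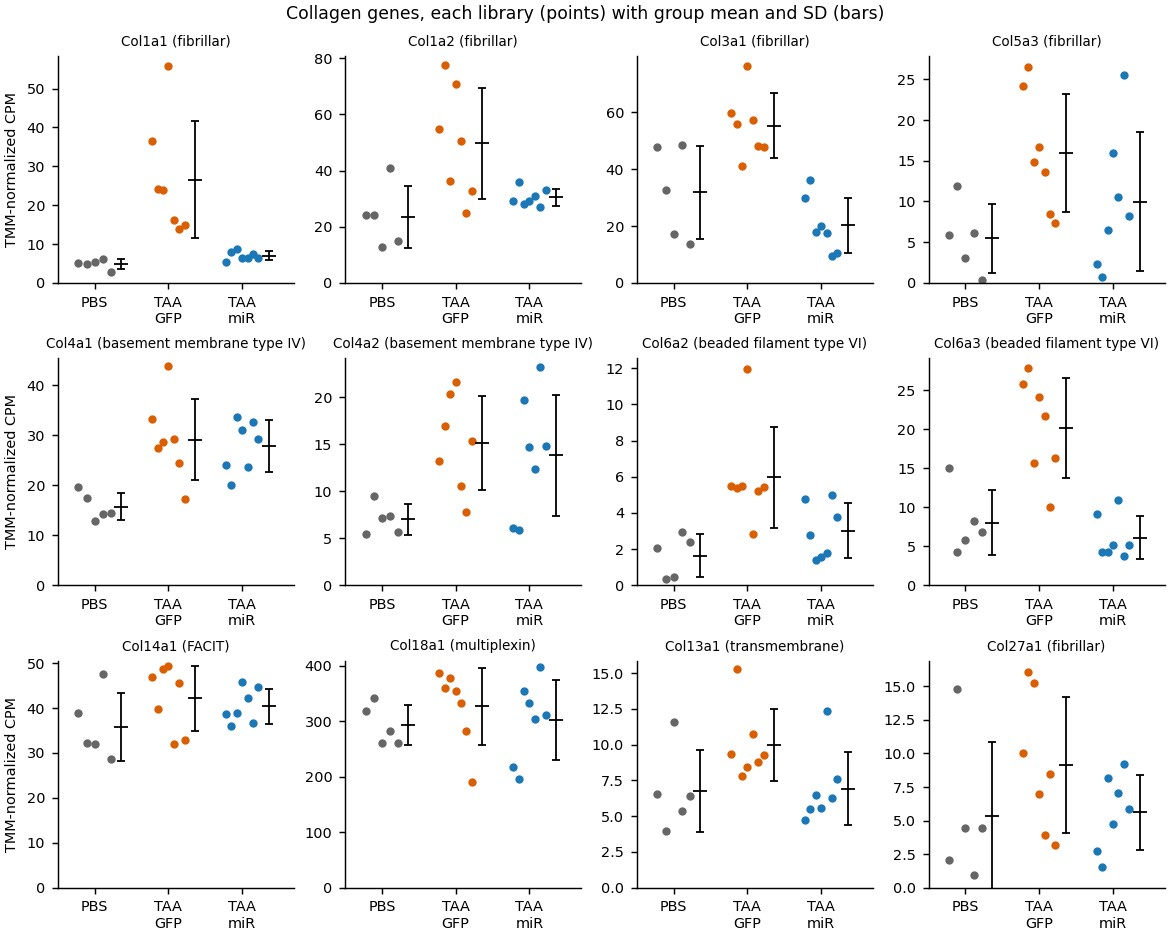
TMM-normalized CPM (linear axes from 0) of 12 collagen genes in each library (points) of PBS (n = 5), TAA_GFP (n = 7) and TAA_miR (n = 7), in replicate order within a group, with the group mean and SD as bars (the PBS bar of Col27a1 is cut at 0). Col1a1 lay at 13.99 to 55.7 CPM in TAA_GFP and at or below 8.75 CPM in every other library, whereas the median of Col4a1 was 28.6 in TAA_GFP and 29.3 in TAA_miR.

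The second comparison asked which collagen genes differed between TAA-treated livers that received miR-34b/c and those that received GFP. Of 12 collagen genes tested, 3 were called lower in TAA_miR and none higher, where 3.36% of all 9252 genes were called, 1.95% higher and 1.42% lower. The 3 were Col1a1 and Col3a1 of the fibrils and Col6a3 of the beaded filaments. All 12 had a log2 fold change below 0, with a median of -0.67, beside a median of -0.01 and 49.1% above 0 over all genes tested. Here too a gene passed the filter more easily when 1 group was high, so the counts describe the genes that passed. Col6a2, for example, had 13 to 41 counts in TAA_GFP and 4 to 24 in TAA_miR. The 3 calls held in each of the 14 fits without 1 library, under every alternative setting and with the close pairs summed.

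Col1a1 ranged from 5.43 through a median of 6.54 to 8.75 CPM in TAA_miR, with 16 to 36 counts a library, so that every TAA_miR library lay below every TAA_GFP library. It was 3.79-fold lower (log2 fold change -1.92 ± 0.29, edgeR adjusted p = 0.000898; exact two-sided permutation p = 0.000583, the smallest that 7 against 7 libraries can give). With the close pairs summed its log2 fold change was -1.87 (edgeR adjusted p = 0.0331).

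Col3a1 ranged from 9.63 through 17.8 to 36.3 CPM in TAA_miR and did not overlap TAA_GFP either. The log2 fold change was -1.46 ± 0.26 (edgeR adjusted p = 0.00305), and -1.54 with the close pairs summed (edgeR adjusted p = 0.0318). Groups without overlap were found for these 2 of the 12 collagen genes, and for 1.37% of all genes tested (0.659% with TAA_miR lower). Within TAA_miR the highest Col3a1 levels were those of the close pair of replicates 1 and 2, at 29.8 and 36.3 CPM. Replicates 3 and 4 stood at 17.8 and 19.9 CPM, replicates 5 and 7 at 17.6 and 10.7, and replicate 6 at 9.63.

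Col6a3 ranged from 3.77 through 5.16 to 10.9 CPM in TAA_miR, with 6 of 7 libraries below every TAA_GFP library. It was 3.36-fold lower (log2 fold change -1.75 ± 0.29, edgeR adjusted p = 0.00172). Col6a2, the one tested gene with a seed match, ranged from 1.41 through 2.76 to 5.02 CPM and had a log2 fold change of -0.95 ± 0.36 that did not pass (edgeR adjusted p = 0.172). Col6a1, which also holds a seed match, was counted at 3 to 12 reads in TAA_miR and was not tested.

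Col1a2 ranged from 27.2 through 29.2 to 35.9 CPM in TAA_miR, inside the range of TAA_GFP. Its log2 fold change of -0.71 ± 0.22 did not pass (edgeR adjusted p = 0.0851), although it did under DESeq2 (adjusted p = 0.0432), with library size as the only scaling (0.0259) and without TAA_GFP replicate 6 (log2 fold change -0.83). Col5a3 (-0.67 ± 0.46), Col27a1 (-0.67 ± 0.39) and Col13a1 (-0.54 ± 0.24) were not called. Col5a3 varied from 0.789 to 25.5 CPM among the TAA_miR libraries.

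The type IV genes showed no detectable difference between the 2 vectors. Col4a1 ranged from 20.1 through 29.3 to 33.6 CPM in TAA_miR (log2 fold change -0.08 ± 0.19, edgeR adjusted p = 0.906). Col4a2 ranged from 5.92 through 14.7 to 23.2 CPM (log2 fold change -0.12 ± 0.29), and its 2 lowest libraries were the close pair of replicates 1 and 2, at 6.10 and 5.92 CPM, within the range of PBS. Col14a1 (-0.06 ± 0.14) and Col18a1 (-0.12 ± 0.18) were likewise not called.

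**Figure D2:**
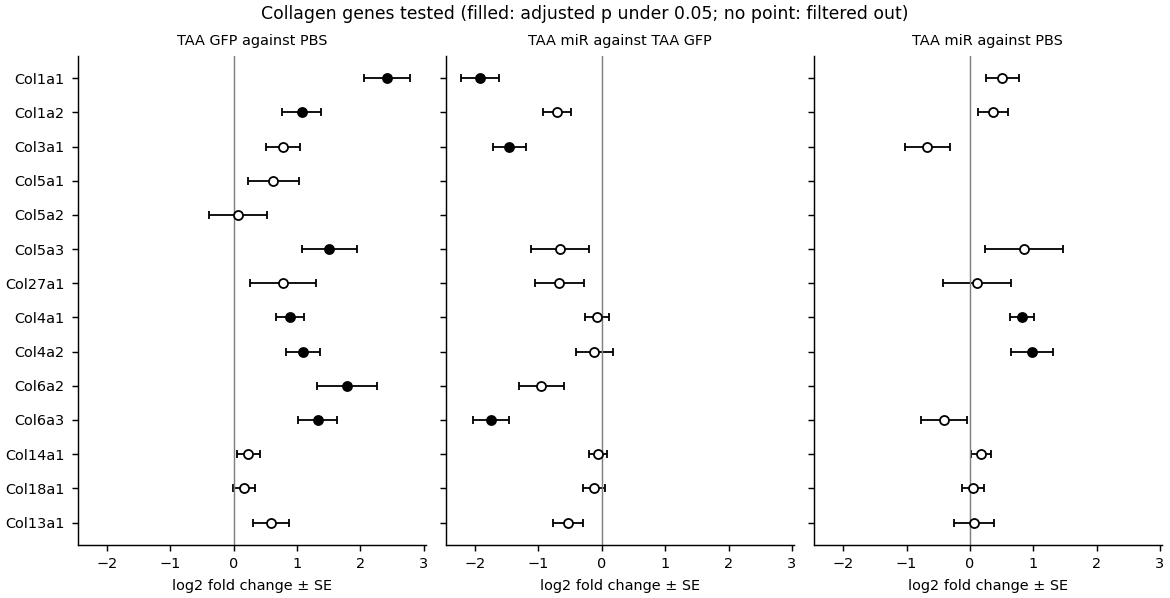
Log2 fold change ± SE (horizontal axis) of the collagen genes tested in each of 3 comparisons, with filled points for an adjusted p under 0.05 and no point where the gene did not pass the filter. Col1a1 (-1.92), Col3a1 (-1.46) and Col6a3 (-1.75) are filled in the comparison of the vectors, where Col4a1 (-0.08) and Col4a2 (-0.12) lie near 0.

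The third comparison set TAA_miR against PBS, and it shares its libraries with both others. Of 11 collagen genes tested, 2 were called higher, Col4a1 and Col4a2, where 21.9% of all 9290 genes were called, 12.2% higher and 9.75% lower, so the collagen share was near that background. Every TAA_miR library had more Col4a1 than every PBS library, the only collagen gene tested without overlap (7.92% of all genes tested, 3.92% with TAA_miR higher), and the log2 fold change was 0.82 ± 0.19 (edgeR adjusted p = 0.00649). Col4a2 had one of 0.99 ± 0.33 (edgeR adjusted p = 0.0414), a call that held in 3 of 12 fits without 1 library (those without PBS replicate 2 or TAA_miR replicate 1 or 2). Over the 12 fits the log2 fold change of Col4a2 ranged from 0.82 to 1.12. Neither passed with the close pairs summed, where 3 collagen genes had an unadjusted p under 0.05. The genes that differed between the vectors were not called by edgeR against PBS, at 0.51 ± 0.26 for Col1a1, -0.68 ± 0.36 for Col3a1 and -0.41 ± 0.36 for Col6a3, and the remaining 6 were not called either. For Col1a1, 6 of 7 TAA_miR libraries lay above every PBS library, and an exact two-sided permutation test of this gene alone gave p = 0.00505, against an edgeR adjusted p of 0.167.

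To set genes of a library side by side, ratios of counts (0.5 added to each) were formed for 4 pairs. The pairs were chosen after the values of these genes were seen, so the ratios are a description and carry no test. Tags from the 3′ end do not scale with transcript length, but their yield differs between genes, so each ratio is read only between groups. Col1a1/Col4a1 ranged from 0.206 to 0.436 in PBS, from 0.558 to 1.27 in TAA_GFP and from 0.210 to 0.398 in TAA_miR. TAA_GFP lay above both other groups without overlap. The mean log2 difference was -1.70 between TAA_miR and TAA_GFP (-1.69 with the close pairs summed) and -0.28 between TAA_miR and PBS.

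Col3a1/Col4a1 ranged from 0.945 through a median of 1.86 to 3.39 in PBS, from 1.43 through 1.97 to 2.74 in TAA_GFP and from 0.297 through 0.643 to 1.80 in TAA_miR. TAA_miR held the lowest values and overlapped both other groups. The mean log2 difference was -1.52 between TAA_miR and TAA_GFP, -1.43 between TAA_miR and PBS and 0.09 between TAA_GFP and PBS.

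Col1a1 and Col1a2 encode the chains that combine into type I collagen. Col1a1/Col1a2 had a median of 0.211 in PBS, 0.569 in TAA_GFP and 0.224 in TAA_miR, with a mean log2 difference of 1.18 between TAA_GFP and PBS and of -1.14 between TAA_miR and TAA_GFP. Col1a1/Col3a1 had a median of 0.156 in PBS, 0.432 in TAA_GFP and 0.366 in TAA_miR. Its mean log2 difference was 1.34 between TAA_GFP and PBS, 1.15 between TAA_miR and PBS and -0.19 between the TAA groups.

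**Figure D3:**
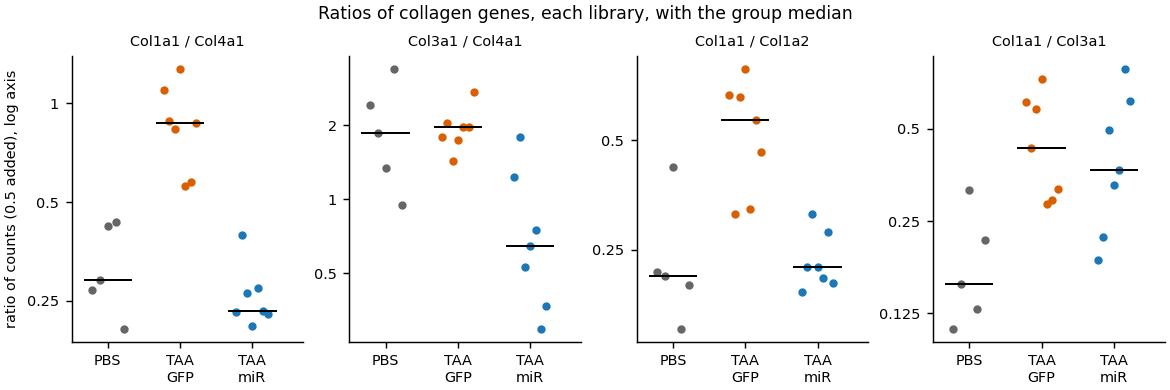
Ratio of the counts of 2 collagen genes (0.5 added to each; log axes) in each library (points) of the 3 groups, with the group median as a line. Col1a1/Col4a1 is at 0.558 to 1.27 in TAA_GFP and at or below 0.436 in all other libraries, and Col3a1/Col4a1 has its lowest median, 0.643, in TAA_miR.

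Summed by class and without normalization beyond the library total, fibrillar collagens took a median of 95.5 CPM in PBS, 158 in TAA_GFP and 71.4 in TAA_miR. They ranged from 40.5 to 109 CPM in PBS, from 107 to 259 in TAA_GFP and from 63.0 to 78.8 in TAA_miR, so that TAA_miR lay within the range of PBS. Type IV collagens took a median of 21.9, 52.0 and 42.8 CPM, and type VI collagens 12.0, 29.4 and 10.9. Col18a1 alone made up a median of 65.9% of collagen counts in PBS, 52.8% in TAA_GFP and 61.9% in TAA_miR. Col1a1 made up 1.01%, 3.65% and 1.32%. These sums are descriptions and were not tested.

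Within TAA_GFP, Col1a1 was compared with the 11 other collagen genes that had at least 10 counts in every library. Pearson's r of log2 CPM over the 7 libraries ranged from -0.14 (Col13a1) to 0.85 (Col4a1), with 10 of 11 above 0, and Spearman's rho from 0 to 0.86. None passed after adjustment over the 19 pairs computed in both TAA groups by exact permutation tests (smallest adjusted p = 0.207 for r and 0.162 for rho). Without the 2 libraries farthest from the median of Col1a1, r ranged from -0.02 to 0.86. Within TAA_miR, r over 8 pairs ranged from -0.75 (Col6a3) to 0.41 (Col4a2), again with none passing (smallest adjusted p = 0.268), and from -0.90 to 0.98 without 2 libraries. Among these libraries are the close pairs, and whether those are separate animals was not tested.

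The genes that make, cross-link, sense and break down collagen were taken from a list of 49. In TAA_GFP against PBS, 7 of 23 tested were called higher and 1 lower, where 7.54% of all genes were called higher and 5.19% lower. With the close pairs summed edgeR called none of the pathway genes, of which 10 had an unadjusted p under 0.05. The log2 fold changes of the 8 genes were then 0.93 to 2.27 for those higher and -1.29 for the lower one, with adjusted p from 0.0576 to 0.145. The higher genes were Serpinh1, the collagen-specific chaperone (log2 fold change 1.27 ± 0.30, edgeR adjusted p = 0.0110), Plod3, a lysyl hydroxylase (0.97 ± 0.27), Loxl1 (2.16 ± 0.56) and Tgm2 (1.21 ± 0.31), which cross-link matrix, the collagen receptor Ddr1 (1.62 ± 0.39), the membrane-bound collagenase Mmp14 (1.20 ± 0.31) and the metalloproteinase inhibitor Timp2 (1.02 ± 0.28). Loxl1 had 0 to 5 counts in PBS and 8 to 20 in TAA_GFP, and so passed the filter through the group where it was high. Ddr1, with 1 to 11 counts in PBS and 10 to 28 in TAA_GFP, passed in the same way. The lower gene was Pcolce2, an enhancer of procollagen cleavage (-1.30 ± 0.34). With 11 to 25 counts in PBS and 4 to 10 in TAA_GFP, Pcolce2 passed the filter through PBS, where it was high.

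Between the vectors 1 of 22 pathway genes was called, Serpinh1, where 3.36% of all genes were called, so that the count was near the background. It stood from 2.22 through 5.15 to 6.11 CPM in PBS, from 8.23 through 9.34 to 17.6 CPM in TAA_GFP and from 2.93 through 4.41 to 5.52 CPM in TAA_miR. TAA_GFP did not overlap either other group. Between the vectors this held for 1 of 22 pathway genes, and for 0.659% of all genes with TAA_miR lower. Against PBS it held for 3 of 23 with TAA_GFP higher, beside 2.65% of all genes. Serpinh1 had 21 to 55 counts in TAA_GFP, 8 to 18 in TAA_miR and 5 to 25 in PBS. Serpinh1 was 2.57-fold lower in TAA_miR than in TAA_GFP (log2 fold change -1.36 ± 0.24, edgeR adjusted p = 0.00305). Against PBS, TAA_miR had 3 of 20 pathway genes called, all higher, near the background of 12.2% of all genes higher. These were Tgm2 (2.17 ± 0.28), Ddr1 (1.91 ± 0.47) and Mmp14 (1.63 ± 0.24), which were not called between the vectors. Ddr1 had 1 to 11 counts in PBS and 11 to 53 in TAA_miR, and so passed the filter through TAA_miR. With the close pairs summed Tgm2 and Mmp14 stayed called and Ddr1 did not (log2 fold change 1.83, edgeR adjusted p = 0.0612).

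**Figure D4:**
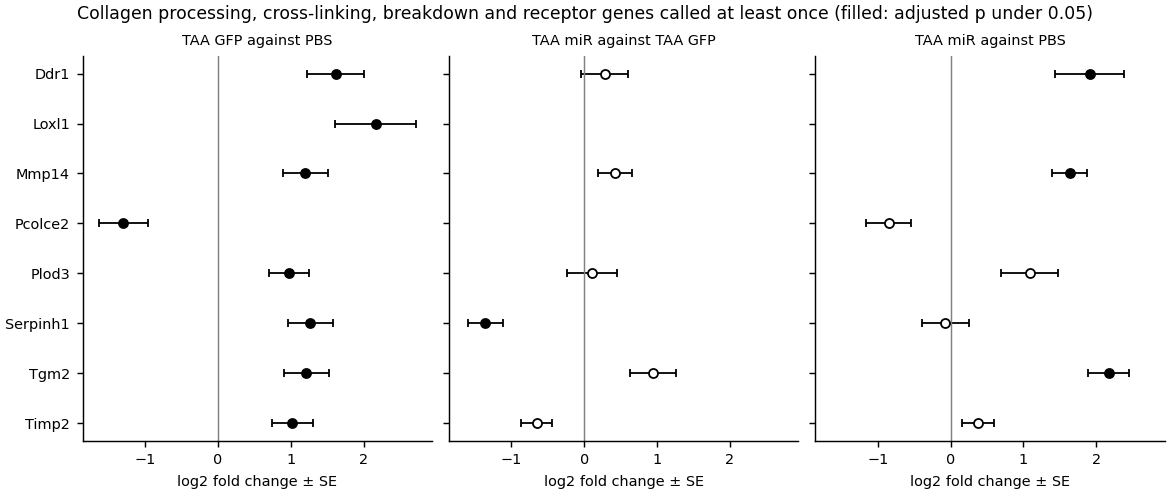
Log2 fold change ± SE (horizontal axis) of the 8 collagen-processing, cross-linking, receptor and breakdown genes called at least once, in 3 comparisons, with filled points for an adjusted p under 0.05. Serpinh1 is called at 1.27 against PBS and at -1.36 between the vectors, whereas Tgm2, Ddr1 and Mmp14 are called against PBS in both TAA groups.

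Markers of the cell types of the liver were read beside these results. The summed level of 8 portal fibroblast markers ranged from 18.5 to 29.3 CPM in PBS, from 33.6 to 47.0 CPM in TAA_GFP and from 18.3 to 25.2 CPM in TAA_miR. The markers of this list did not move alike. Eln had medians of 0.686, 6.46 and 1.05 CPM in PBS, TAA_GFP and TAA_miR, and Gas1 of 10.6, 13.6 and 8.46. Thy1 had medians of 1.21, 0.969 and 0.837 CPM. Of the 4 tested between the vectors, where 1.42% of all genes were called lower, Eln (elastin, log2 fold change -1.80 ± 0.48, edgeR adjusted p = 0.0445) and Dpt (dermatopontin, -1.62 ± 0.30, edgeR adjusted p = 0.00382) were called lower. The other tested markers of this list were not called. Eln had 10 to 29 counts in TAA_GFP against 0 to 13 in TAA_miR and 0 to 5 in PBS, and so passed the filter through TAA_GFP. The summed level of 10 hepatic stellate cell markers overlapped in all groups (206 to 346 CPM in PBS, 184 to 296 in TAA_GFP and 188 to 398 in TAA_miR), and edgeR called none of 9 tested between the vectors (1 at an unadjusted p under 0.05; none called by DESeq2). The median count of Fbln2 and Mfap4 in PBS and of Mfap4 in TAA_miR was 0. The 5 smooth muscle markers summed to between 3.29 and 16.9 CPM over all libraries, with Cnn1 and Actg2 at a median count of 0 in each group. The 8 endothelial markers summed to between 302 and 352 CPM in PBS, 292 and 334.7 in TAA_GFP and 336.5 and 449 in TAA_miR. The highest TAA_GFP sum thus lay just below the lowest TAA_miR sum. Of these 8, all tested, Lyve1 alone was called between the vectors, where 1.95% of all genes were called higher. Lyve1 was higher in TAA_miR than in TAA_GFP (log2 fold change 1.06 ± 0.17, edgeR adjusted p = 0.00130). Its mean was 46.7 CPM in TAA_miR and 22.4 CPM in TAA_GFP. Cdh5, the endothelial cadherin, had a log2 fold change of -0.56 ± 0.27 between the vectors (edgeR adjusted p = 0.342) and was called lower in TAA_miR than in PBS (-1.25 ± 0.26, edgeR adjusted p = 0.00383). The 6 cholangiocyte markers were higher in sum in every TAA library than in every PBS library. The sums were 18.7 to 41.1 CPM in PBS, 53.4 to 96.8 in TAA_GFP and 49.2 to 118 in TAA_miR. Only 2 of the 6 were tested in each comparison. Sox9 had medians of 17.5, 37.2 and 42.3 CPM in PBS, TAA_GFP and TAA_miR, and Spp1 of 10.9, 31.6 and 17.4. Krt7 had medians of 0.686, 2.145 and 0.678 CPM. Epcam and Cldn7 had a median count of 0 in PBS, and Cldn7 also in TAA_miR. The 7 macrophage markers summed to between 307 and 580 CPM in PBS, 228 and 398 in TAA_GFP and 363 and 544 in TAA_miR. Of these 7, all tested, 4 were called lower in TAA_GFP than in PBS, where 5.19% of all genes were called lower, and Cd5l was called higher in TAA_miR than in TAA_GFP (log2 fold change 0.86 ± 0.17, edgeR adjusted p = 0.00553). The part of these cells in the collagen differences was not tested.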

How the data were processed

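Liver RNA (100 ng per the labels) was made into 3′ tag libraries (QuantSeq) and sequenced as single 100-base reads. The deposited table holds raw read counts per Ensembl gene for 19 libraries, which the authors had made by trimming, alignment and counting per gene. The submitters' processing notes name STAR and mm10, whereas the annotation release, whether counting used strand and whether molecular identifiers were used are not given in the sources used here. The counts of 30934 of 31053 genes were paired with symbols (GENCODE M21).

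Each comparison was fitted over the whole table with edgeR 4.0.16 (R 4.3.3) by the quasi-likelihood test on the 2 groups concerned, after TMM normalization and filterByExpr (minimum count 10, minimum total 15), with Benjamini-Hochberg adjustment over all genes tested and a threshold of 0.05. Standard errors were derived from the fold change and its F statistic. For permutation tests of single genes, CPM were put on a log2 scale (prior count 2). The labels call the libraries biological replicates. The fits were tested on simulated counts, whose outcome is not given here and carries no result. Alternatives were DESeq2 1.42.0, its size factors, library size only, no filter, 1 fit of all groups, a replicate block, close pairs summed (coefficient of variation under 0.2), and each library left out. The ratios of genes and their alternatives were added after the data were seen and are given without a test. Total counts of 2214073 to 5208405 limit genes with few counts.

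The members, gene lists and marker lists were chosen with earlier results of these data known. All members that passed the filter in at least 1 comparison and all pathway genes called at least once were named, and the others were given by count. Coordinates are those of GENCODE M21 (mm10), and sequences are from RefSeq (GRCm38.p6) and GENCODE M21 transcripts.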

Additional observations from a re-analysis of the deposited data

Results flagged for a closer look

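A library far from the others of its group was sought for the 14 collagen genes in each of 3 groups, 42 sets of values in all, of which chance would mark about 2.1 (1 in 20). It was found in 2. Col1a1 was low in PBS replicate 5, at 1.78 log2 CPM against 2.48 in the next lowest library. Col5a2 was low in TAA_miR replicate 6, at -0.67 log2 CPM against 0.86 in the next lowest library, where it had 0 counts.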

How the results depend on the processing

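The 3 collagen genes called between the vectors (Col1a1, Col3a1 and Col6a3) were called under all 7 alternative settings and in all 14 fits without 1 library; the count of collagen calls there ranged from 3 to 4. In TAA_GFP against PBS the count of 7 became 1 with the close pairs summed, and ranged from 5 to 9 without 1 library. With all 3 groups in 1 fit, Col5a3 was lost and Col6a1 gained; with the replicate block Col3a1 and Col27a1 were gained, and Col6a2 was not among the 13 genes tested. In TAA_miR against PBS the count of 2 became 1 with library size as the only scaling, 0 with the close pairs summed and 0 with a replicate block, and ranged from 1 to 2 without 1 library (Col4a2 was the gene lost, in 9 of the 12 fits, and Col1a2 was gained without PBS replicate 4). Pathway calls in TAA_GFP against PBS went from 8 to 0 with the close pairs summed and ranged from 5 to 11 without 1 library (5 without TAA_GFP replicate 1). Between the vectors 1 pathway call became 3 with no filter, and 2 with library size only, with DESeq2 and with all groups in 1 fit (1 to 2 without 1 library). In TAA_miR against PBS 3 pathway calls became 6 with no filter, and 5 with library size only, with DESeq2 and with all groups in 1 fit (3 to 6 without 1 library), and 2 with the close pairs summed, where Ddr1 was lost. The cause was not tested, beyond the fewer samples when pairs are summed.

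Some small differences that were not called changed sign. In TAA_miR against PBS with library size only, the log2 fold change was -0.0555 for Col13a1, -0.0792 for Col18a1 and -0.0205 for Col27a1; it was -0.0667 for Col18a1 with the replicate block and -0.0789 for Col27a1 with the close pairs summed. Without 1 library, the ranges were -0.14 to 0.32 for Col13a1, -0.0181 to 0.13 for Col18a1 and -0.19 to 1.01 for Col27a1 in that comparison, -0.15 to 0.35 for Col5a2 in TAA_GFP against PBS, and -0.17 to 0.0466 for Col4a1 and -0.29 to 0.0104 for Col4a2 between the vectors. The log2 Col1a1/Col1a2 difference of TAA_miR and PBS was -0.0029 with 2 added to each count and -0.11 to 0.26 without 1 library, and that of Col3a1/Col4a1 between TAA_GFP and PBS was -0.15 to 0.32.

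Without mitochondrial genes and Gm42418 in the total, fibrillar collagens took a mean of 86.8 CPM in PBS instead of 78.9, 201 in TAA_GFP instead of 178, and 79.7 in TAA_miR instead of 71.9. Replicate numbers did not pair the samples: the correlation of same-numbered deviations ranged from -0.09 to 0.22, -0.28 to 0.21 and -0.23 to 0.28 in the 3 comparisons, and the replicate block gave 8, 3 and 0 collagen calls. Low counts, such as 7 to 25 for Col1a1 in PBS, limit the precision of the smaller genes.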
